A study of Sus scrofa with 3 samples.

Results

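The 59 genes described here were those whose mRNA was low in visceral adipose tissue of castrated pigs and high both in intact pigs and in castrated pigs given testosterone. They were chosen by their measured levels: a gene of type mRNA had to reach at least 20 UQRPKM in the intact and the testosterone-treated library, and at least 2 times the level of the castrated, untreated library in both. UQRPKM is the number of reads per kilobase of gene, scaled to its library's upper quartile of reads over genes. Of 22826 mRNA genes listed, 9951 reached 20 UQRPKM in both high libraries and could pass, and the 59 genes were 0.593% of these. Since the rule used all 3 libraries, the size and direction of these differences are a description of how the genes were chosen.

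The samples were retroperitoneal fat from male Wuzhishan miniature pigs, 6 to 7 months old, all kept for 12 weeks on feed rich in fat and cholesterol (HFC diet). IM were intact males, CM were castrated males, and CMT were castrated males given testosterone propionate at 10 mg/kg each week. RNA of several pigs was pooled in each group (4 pigs by the study's methods, 4 to 6 by the labels) and made into 1 library, so that nothing measures the spread between pigs and no test between groups was possible. Ranges given as 95% intervals are exact Clopper-Pearson intervals from the reads recovered from the deposited values, and they cover counting error only. Sets of 3 levels are given in the order IM, CM, CMT, and in counts of listed genes lower and higher mean by 1.5-fold or more.

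Testosterone, the main androgen of the male, changes the transcription of its target genes, and castration removes most of the circulating hormone. In fat, androgens act on preadipocytes and adipocytes and restrain the growth of visceral depots. Genes that are low after castration and high again with replacement are therefore the simplest pattern to look for in a castration and rescue design, although a change in the mix of cells in the tissue gives the same pattern as a change within adipocytes. In bulk tissue, fewer cells of a type and less RNA in each cell cannot be told apart.

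Recovered reads numbered 16611931 (IM), 15561124 (CM) and 15106608 (CMT). Adipocyte markers were abundant in all 3 libraries, with summed levels of 132843, 124145 and 107194 UQRPKM. Of the 7 that could be compared, 0 were 1.5-fold lower and 1 higher in CM than in IM. Over all mRNA genes, 10.4% were lower and 8.38% higher. The marker higher in CM was LEP, at 167, 502 and 156 UQRPKM, and it was also the 1 lower in CMT than in CM. By any amount, 6 of the 7 were below CM in CMT. Markers of other tissues differed between the libraries. Albumin (ALB) was at 2.61, 2910 and 4.00 UQRPKM, and CM exceeded IM by 1.5-fold or more for 5 of 6 hepatocyte markers. The skeletal muscle markers summed to 114, 97.3 and 7267 UQRPKM, and CMT exceeded CM by 1.5-fold or more for 10 of 10. The part of these transcripts in the pattern was not tested.

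The same rule was applied with each library in turn as the odd one. Genes low in 1 library and high in both others numbered 57 (0.577%) for IM, 59 (0.593%) for CM and 70 (0.705%) for CMT. The number of genes low only in the castrated, untreated library therefore lay between the numbers for the other libraries. Genes high in 1 library alone numbered 76 (0.733%) for IM, 171 (1.65%) for CM and 118 (1.14%) for CMT. CM thus had the most genes set apart by a high level, which it did not by a low level.

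**Figure D1:**
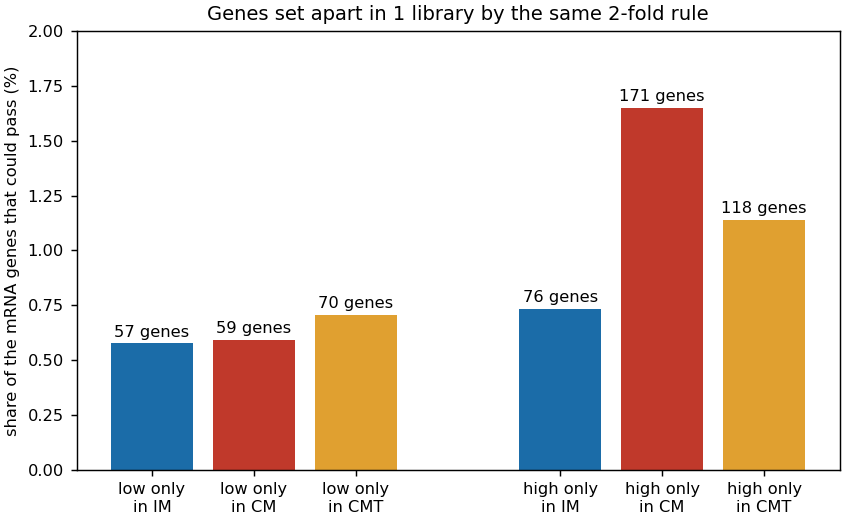
Bars give the percentage of mRNA genes able to pass that were set apart in 1 library by the 2-fold rule with a minimum of 20 UQRPKM, with the number of genes above each bar. The 3 bars for a low level lie between 0.577% and 0.705%, and CM has the highest of the bars for a high level, 1.65%.

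Few of the ratios were large. The smaller of the ratios IM to CM and CMT to CM had a median of 2.61 and was under 2.5 for 26 genes and at least 3 for 21 genes. Since the rule used the same ratios, 95% intervals beyond a ratio of 1 were largely fixed by it: both lay there for 56 of the 59 genes, and for 11% of all 9951, from which nothing further is read. The exceptions were LOC102161161, ADM2 and LOC100739391, which rested on 3, 7 and 5 reads in CM. Both intervals lay beyond 2-fold for 20 genes, 0.201% of the 9951, all of which are among the 59 by construction. CM held fewer than 10 reads for 10 of the genes, and the genes with the largest ratios were among those with few reads in CM.

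**Figure D2:**
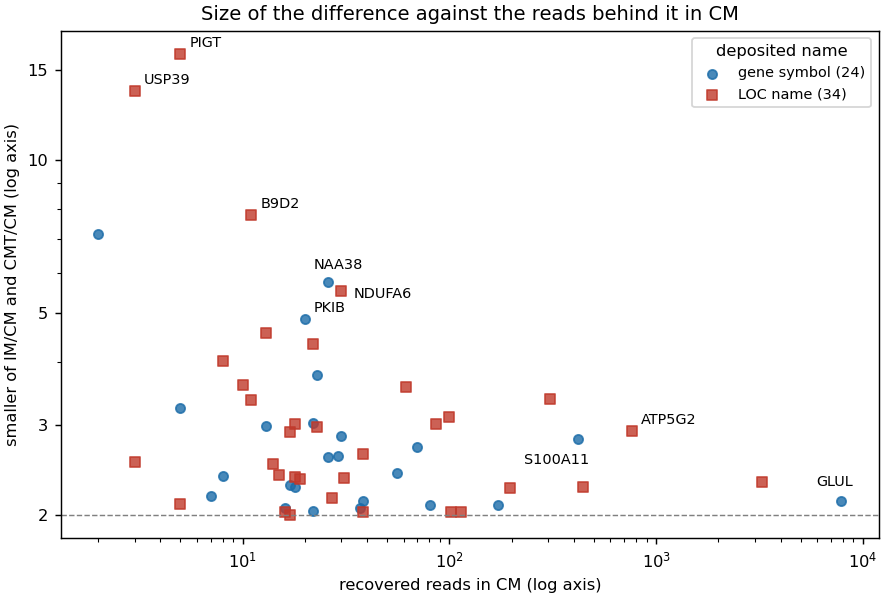
Each point is 1 of the 58 genes above 0 in CM, with the recovered reads in CM on a log x axis and the smaller of the ratios IM to CM and CMT to CM on a log y axis; colour and shape separate genes deposited under a symbol from those under a LOC number. The 2 highest points, the entries for PIGT and USP39, rest on 5 and 3 reads in CM, while GLUL has 7877 reads and a ratio of 2.13.

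At the fold threshold, LOC100739592, LOC102160444 and LOC100621460 were just inside, with smaller ratios of 2.002, 2.02 and 2.02, and PHLDB3, LOC100517308 and HOXC10 were just outside at 1.99, 1.99 and 1.99. At the level threshold, the smaller of IM and CMT was 20.2 UQRPKM for ACVR2B, 20.5 for LOC100739391 and 21.0 for IL20RB inside, and 19.8 for LOC100513919, 19.7 for CNTN3 and 19.7 for RAVER2 outside.

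The rule did not set the ratio of CMT to IM directly. It did limit this ratio, since both libraries had to be at least 2 times CM. The 9951 genes were not held to that limit, so their values stand beside the others as description only. The log2 ratio of CMT to IM had a median of -0.01 over the 59 genes and -0.08 over the 9951 genes at the same level. CMT was within 1.5-fold of IM for 50 of the 59 genes, beside 89.9% of all genes at this level. The 95% interval of CMT to IM included 1 for 42 genes, lay above 1 for 7 and below 1 for 10. The proton-gated sodium channel ASIC1 was among the latter, at 109, 15.2 and 31.7 UQRPKM, so that CMT remained well below IM. PKIB, an inhibitor of protein kinase A, went the other way, at 45.9, 9.45 and 92.4 UQRPKM. The log2 ratio of CMT to IM was -1.78 (95% interval -2.03 to -1.53) for ASIC1 and 1.01 (0.66 to 1.37) for PKIB.

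**Figure D3:**
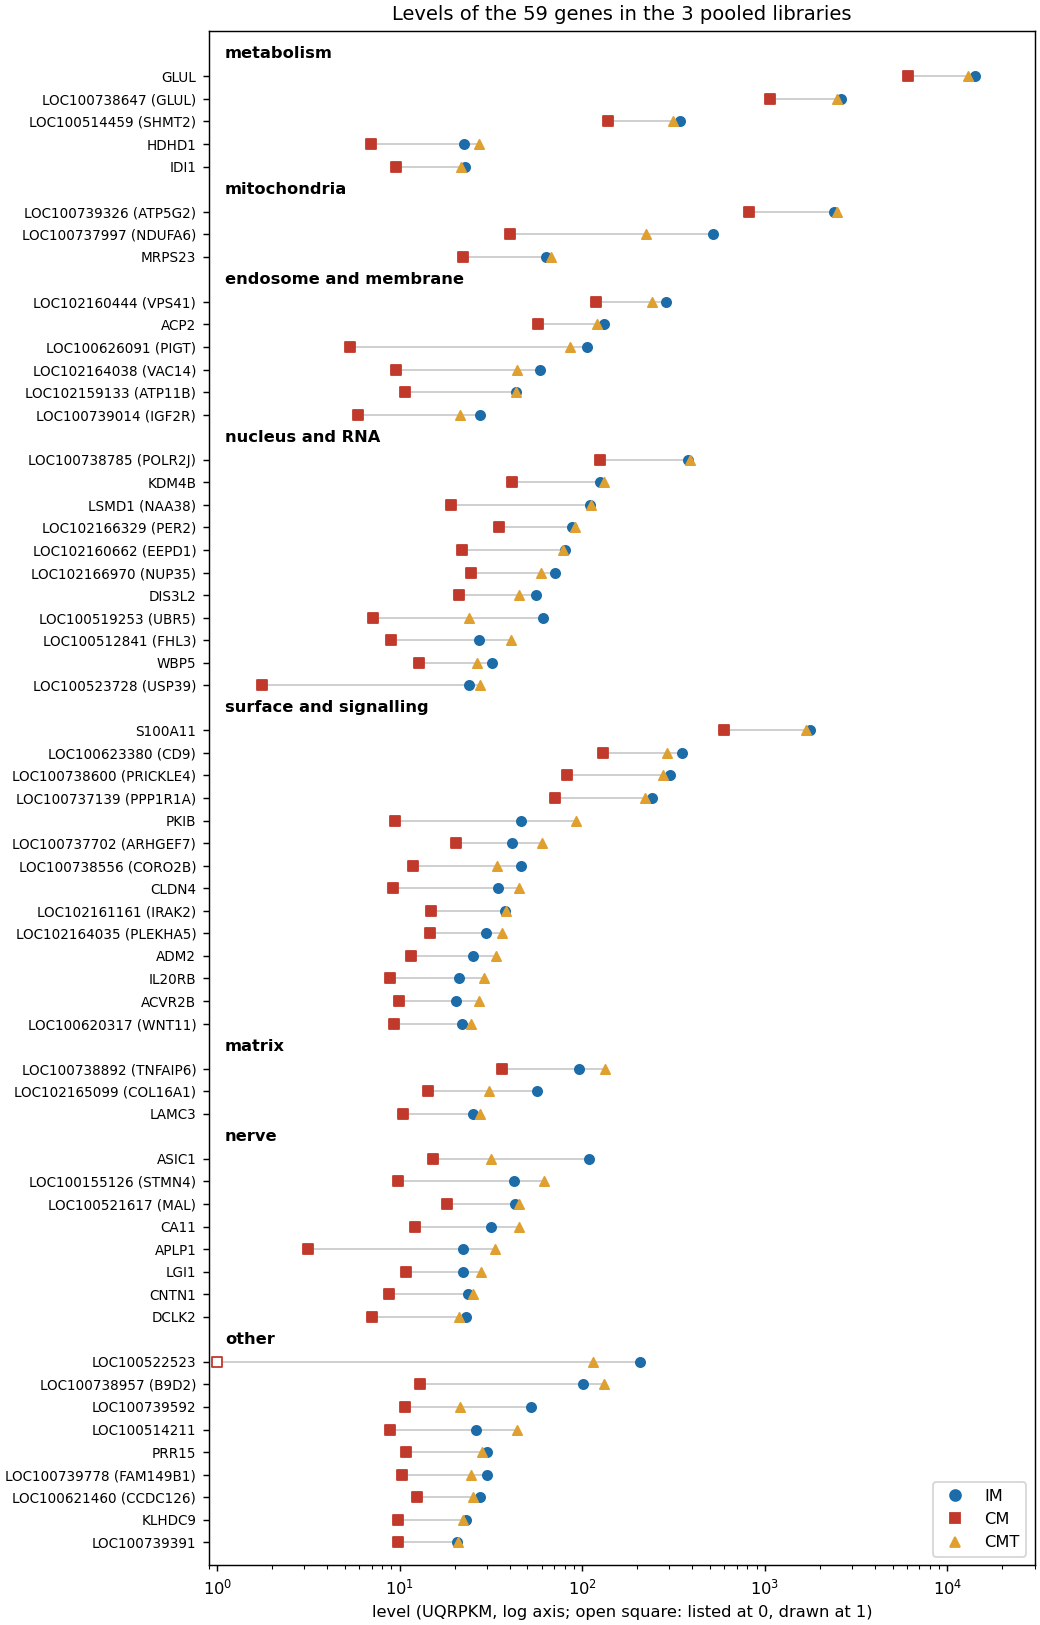
Each line is 1 of the 59 genes, grouped by the role of its product, with its level in UQRPKM on a log axis in IM (circle), CM (square) and CMT (triangle); an open square stands for a gene listed at 0. CM is the lowest in every line because the genes were chosen that way, levels in IM run from 20.2 UQRPKM for ACVR2B to 14137 for GLUL, and the IM and CMT symbols lie close together for most genes.

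The genes fell into many roles. By the products given in the file, in the study's own annotation or in RefSeq, 14 belonged to cell surface and signalling, 11 to the nucleus and RNA, 8 to nerve and synapse, 6 to endosomes and membranes, 5 to metabolism, 3 to mitochondria and 3 to the extracellular matrix, and 9 to other or no known roles. In the gene order of the current RefSeq pig assembly, 23 of the genes could be placed and 0 were direct neighbours of each other.

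Glutamine synthetase was by far the most abundant product. GLUL, which makes glutamine from glutamate and ammonia and is a known target of glucocorticoids, was at 14137, 6069 and 12942 UQRPKM, from 19252, 7877 and 17270 reads. A second entry for the same enzyme, LOC100738647, was at 2606, 1072 and 2483 UQRPKM. Both entries were lowest in CM by nearly the same factor. The log2 ratio of CM to IM was -1.22 (95% interval -1.26 to -1.18) for GLUL and -1.28 (-1.34 to -1.22) for LOC100738647, and that of CMT to CM was 1.092 (1.054 to 1.131) and 1.21 (1.15 to 1.27). The share of GLUL in the sum of both entries was 84.4%, 85.0% and 83.9%, so the share of each entry hardly moved while their sum went from 16742 UQRPKM in IM to 7141 in CM and 15425 in CMT.

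Other genes of glutamine and glutamate metabolism did not share the pattern. Of 21 genes of the list that could be compared, GLUL included, 2 were at least 1.5-fold lower and 3 higher in CM than in IM, where over all mRNA genes 10.4% were lower and 8.38% higher. Between CMT and CM, 3 of 21 were lower and 2 higher, beside 9.97% and 9.53% of all genes. Glutamate dehydrogenase (GLUD1) was at 904, 994 and 1001 UQRPKM, and the glutamine transporter SLC1A5 at 1245, 1078 and 1017. Among genes known to respond to glucocorticoids or androgens, CM was lower than IM for 3 of 15, GLUL included, and higher for 0 (1 under either other scaling), and 2 were lower and 4 higher, GLUL included, in CMT than in CM. The shares over all genes are those given above. GLUL counts there because the rule chose it. The other genes lower in CM were PCK1 and DIO3, the latter at 12.1, 3.34 and 18.5 UQRPKM. The paper had reported both with this pattern from the same data, so no independent result is read from these counts. All 3 were also among the 4 higher in CMT. By any amount, GLUL included, 14 of the 15 were below IM in CM and 1 was above. Their median log2 ratio of CM to IM was -0.34, beside -0.06 over all mRNA genes. From CM to CMT, 5 went down and 10 up, with a median log2 ratio of 0.19 beside -0.02. Whether the list moved as a whole was not tested. PCK1, the enzyme of glyceroneogenesis in fat, was at 5402, 3377 and 5326 UQRPKM, short of the 2-fold rule. FKBP5, a common reporter of both hormones, was at 301, 283 and 269 UQRPKM.

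Other metabolic genes among the 59 were much lower in level. LOC100514459, annotated as the mitochondrial serine hydroxymethyltransferase SHMT2, which passes a carbon unit from serine to folate, was at 344, 139 and 314 UQRPKM. IDI1, the isopentenyl diphosphate isomerase of sterol synthesis, was at 22.8, 9.55 and 21.7. HDHD1, a pseudouridine monophosphatase, was at 22.5, 6.95 and 27.0 on only 5 reads in CM. Of 17 genes of one-carbon metabolism, 2 were lower and 2 higher in CM than in IM, and 1 was lower and 0 higher in CMT than in CM, so the list as a whole did not follow the SHMT2 entry.

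Of the mitochondrial products, LOC100739326, annotated as the c subunit ATP5G2 of the ATP synthase rotor, was at 2383, 815 and 2484 UQRPKM. LOC100737997, annotated as the complex I subunit NDUFA6, was at 516, 40.2 and 222, and MRPS23 of the small mitochondrial ribosomal subunit was at 63.6, 22.2 and 67.1. The other genes of the ATP synthase did not move with LOC100739326. Of 14 that could be compared, 0 were 1.5-fold lower and 3 higher in CM than in IM, and 2 were lower and 1 higher in CMT than in CM. The 14 include the entry deposited as ATP5G2, which has the same product as LOC100739326. That entry was among the 3 higher in CM and the 2 lower in CMT. The catalytic subunit ATP5B, for example, was at 8148, 7313 and 7228 UQRPKM.

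Among products of endosomes and membranes, ACP2, a lysosomal acid phosphatase, was at 131, 57.5 and 120 UQRPKM. LOC102160444, annotated as VPS41, a part of the complex that tethers vesicles to lysosomes, was at 287, 119 and 241. LOC102164038, annotated as VAC14, a scaffold of the kinase that makes a phosphoinositide of late endosomes, was at 58.3, 9.59 and 43.8, and LOC102159133, annotated as the phospholipid flippase ATP11B, at 43.5, 10.7 and 43.1. LOC100626091 was annotated as PIGT, a subunit of the transamidase that attaches GPI anchors to proteins, and had the largest ratios of the genes above 0 in CM. It was at 106, 5.32 and 85.9 UQRPKM, from 105, 5 and 83 reads. Of 21 genes of endosome and lysosome trafficking, ACP2 was the 1 gene lower in CM than in IM and 0 were higher. Of 4 genes of the GPI transamidase, 0 were lower and 0 higher in either comparison.

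Nuclear and RNA products included LOC100738785, annotated as the RNA polymerase II subunit POLR2J, at 377, 125 and 389 UQRPKM, and the histone demethylase KDM4B at 125, 41.3 and 132. LSMD1, now named NAA38, an auxiliary subunit of an N-terminal acetyltransferase, was at 110, 19.1 and 112 UQRPKM, and LOC100523728, annotated as the spliceosome factor USP39, at 23.99, 1.76 and 27.3. LOC102166329, annotated as the clock repressor PER2, was at 87.4, 34.7 and 91.6. Of 10 other RNA polymerase II subunits, 0 were 1.5-fold lower or higher in CM than in IM. Of 14 clock genes, 0 were lower and 1 higher in CM than in IM, and 0 were lower and 1 higher in CMT than in CM. PER1, the close relative of PER2, was at 440, 315 and 377 UQRPKM.

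Surface and signalling products were led by S100A11, a small calcium-binding protein, at 1764, 598 and 1689 UQRPKM. The log2 ratio of CM to IM was -1.56 (95% interval -1.72 to -1.40) and that of CMT to CM was 1.498 (1.337 to 1.662). LOC100623380, annotated as the tetraspanin CD9, was at 349, 129 and 291, and LOC100738600, annotated as the planar polarity protein PRICKLE4, at 300.5, 82.0 and 277. LOC100737139, annotated as PPP1R1A, an inhibitor of protein phosphatase 1 that acts downstream of protein kinase A, was at 241, 71.1 and 221 UQRPKM. CLDN4, a tight junction protein of epithelia, was at 34.4, 9.13 and 45.1. Of 6 mesothelial and epithelial markers, CLDN4 was the 1 at least 1.5-fold lower in CM than in IM, while 3 were higher. Over all mRNA genes, 10.4% were lower and 8.38% higher. In CMT, 5 of 6 were higher than in CM and 1 lower, beside 9.53% and 9.97% of all genes. CLDN4 counts in both comparisons because the rule chose it. The summed marker level was 156, 215 and 540 UQRPKM, and KRT8 was at 51.2, 102 and 307. Receptors and ligands lay near the level threshold, among them the activin receptor ACVR2B at 20.2, 9.93 and 27.2, the cytokine receptor chain IL20RB at 21.0, 8.80 and 28.9, and LOC100620317, annotated as the ligand WNT11, at 21.8, 9.23 and 24.6.

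The 3 matrix products were LOC100738892, annotated as the hyaluronan-binding protein TNFAIP6 (TSG-6), at 96.0, 36.5 and 133 UQRPKM, LOC102165099, annotated as the fibril-associated collagen COL16A1, at 56.6, 14.3 and 30.9, and the laminin chain LAMC3 at 25.0, 10.4 and 27.3. Of 10 genes of the TSG-6 and hyaluronan matrix list, 1 was lower and 3 higher in CM than in IM. Those higher included ITIH1, an inter-alpha-trypsin inhibitor chain made mainly in liver, at 9.44, 186 and 8.85 UQRPKM, in the library that also held the hepatocyte markers.

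Nerve and synapse products numbered 8, and all but ASIC1 were at 61.9 UQRPKM or less. The axonal adhesion molecule CNTN1 was at 23.6, 8.67 and 25.3 UQRPKM, from 200, 70 and 210 reads. APLP1, a relative of the amyloid precursor protein, was at 22.3, 3.12 and 33.4 on 2 reads in CM. LOC100155126, annotated as the tubulin regulator STMN4, was at 42.4, 9.79 and 61.9. The levels of CNTN1 and the STMN4 entry thus rested on more reads than that of APLP1. Of 13 Schwann cell and nerve markers that could be compared, 5 were lower and 0 higher in CM than in IM, beside 10.4% and 8.38% of all mRNA genes. Of 12, 1 was lower and 3 higher in CMT than in CM, beside 9.97% and 9.53%. CNTN1 and APLP1 count in both comparisons because the rule chose them, and NCAM1 was the other gene higher in CMT. Of the others lower in CM, SOX10 rested on 5 reads in IM and 3 in CM. The summed marker level was 562, 446 and 500.2 UQRPKM, with MBP, a protein of myelin, listed at 0 in all libraries. Whether the amount of nerve in the pooled tissue moved with these genes was not tested.

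Of the 4 genes of unknown product, LOC100522523 stood out. It was at 206 UQRPKM in IM and 114 in CMT, from 351 and 190 reads, and was listed at 0 in CM. Against the level that 3 reads would give in CM, 1.85 UQRPKM, it was at least 112-fold higher in IM and at least 61.6-fold higher in CMT. LOC100738957, annotated as the ciliary protein B9D2, was at 101, 13.0 and 132 UQRPKM on 11 reads in CM.

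What the genes shared beyond the rule was their naming. Of the 59 genes, 35 (59.3%) carried a LOC number in place of a symbol, beside 19.2% of the 9951 genes at the same level. Genes set apart by a low level in the other libraries had LOC names in 45.6% (IM) and 42.9% (CMT) of cases, and genes set apart by a high level in 57.9% (IM), 28.7% (CM) and 41.5% (CMT). A high share of LOC names was therefore found in all of these sets. LOC numbers are provisional names of predicted genes. Of the 35 LOC numbers, 5 (14.3%) were found in the current RefSeq table of the pig, beside 48.1% of the 1906 LOC genes at this level. The genes had a median recovered length of 1142 bases beside 2062 over the 9951 genes, and their reads summed over the libraries had a median of 199 beside 1239. The other sets lay in the same range, with median lengths from 903 to 1347 bases and median summed reads from 123 to 269.5, so neither was particular to the genes low only in CM.

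For 31 of the 59 genes, 28 of them LOC numbers, another entry in the same files carried the same product. Besides the pair of GLUL entries, 31 such entries were found by the symbol of the product or by their name in RefSeq, and 27 of these were at 1 UQRPKM or more in all libraries. These other entries were not used by the rule. Of the 27, CM was above both other libraries in 16 and below both in 6. CM was at least 1.5-fold higher than both in 5 (18.5%), beside 3.48% of all mRNA genes at 1 UQRPKM or more, and at least 1.5-fold lower than both in 2, beside 4.23%. The remaining 20 did neither. A low level in CM of the entry chosen was therefore rarely seen in the other entry of the same product.

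**Figure D4:**
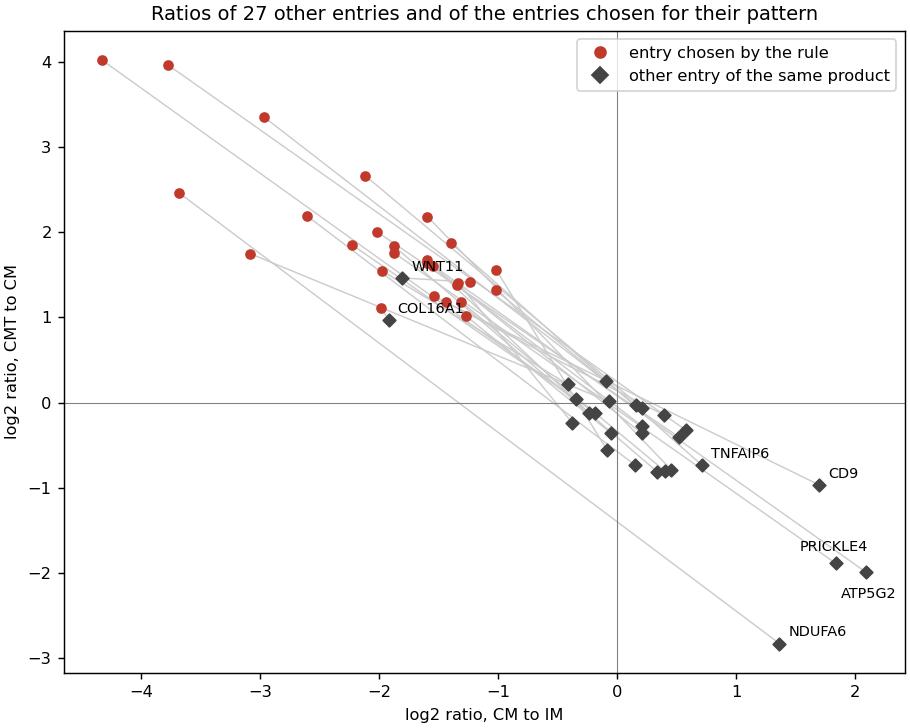
Points give the log2 ratio of CM to IM (x) and of CMT to CM (y) for the 27 other entries of a product (diamonds) and for the entries chosen by the rule (circles), joined where they share a product; both axes use the CM value. The circles lie at the upper left because they were chosen there, the diamonds of COL16A1 and WNT11 lie near them, most diamonds lie near 0, and those of ATP5G2, PRICKLE4, NDUFA6, CD9 and TNFAIP6 lie at the lower right.

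In several products the entries mirrored each other. The entry deposited as ATP5G2 was at 381, 1627 and 409 UQRPKM, the reverse of LOC100739326. The sum of both was 2764, 2442 and 2893 UQRPKM, and over their summed reads the log2 ratio of CM to IM was -0.01 (95% interval -0.08 to 0.07). The share of LOC100739326 in the summed level was 86.2%, 33.4% and 85.9%. The product as a whole thus hardly differed between the libraries, whereas the share of each entry did.

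The second entry of PRICKLE4, LOC100520848, was at 81.2, 290 and 78.4 UQRPKM, and summed reads gave a log2 ratio of CM to IM of -0.09 (-0.19 to 0.02). NDUFA6 under its own symbol was at 126, 325 and 45.8 UQRPKM, and LOC100156627, which the study's annotation also gave as NDUFA6, at 90.4, 77.6 and 349. The 3 NDUFA6 entries thus each had another library as their highest. CD9 under its own symbol was at 205, 663 and 340, and here the sum of both entries was highest in CM, at 554, 793 and 631 UQRPKM. TNFAIP6 under its own symbol was at 55.1, 90.3 and 54.3. KDM4B had LOC100738761 at 159, 135 and 124 UQRPKM and LOC100627710, found by the study's annotation alone, at 3.95, 97.3 and 8.06. The sum over the 3 KDM4B entries was 289, 274 and 264 UQRPKM, within 1.5-fold in all libraries.

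**Figure D5:**
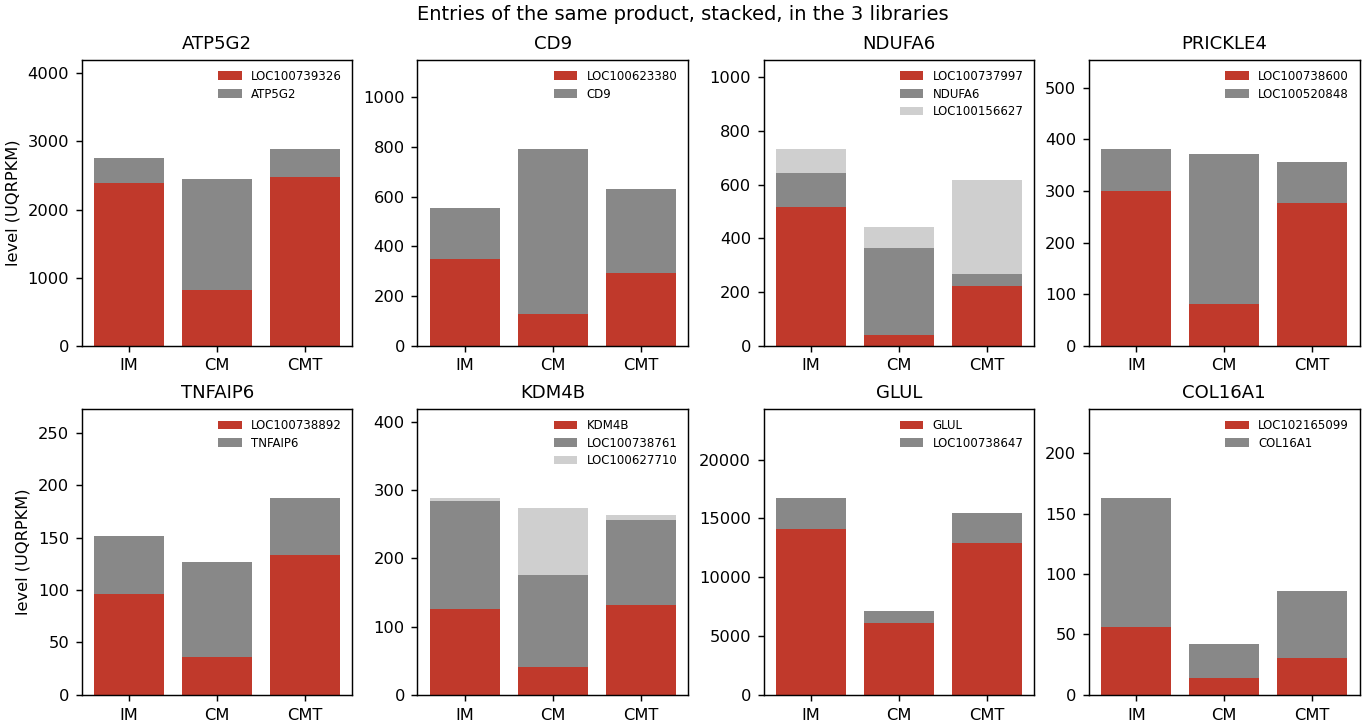
Stacked bars give the level in UQRPKM of the entry chosen by the rule (red) and of the other entries of the same product (greys) in IM, CM and CMT, each panel with its own axis from 0. In ATP5G2, PRICKLE4 and KDM4B the full bars are of similar height while the red part is smallest in CM, in CD9 the full bar is tallest in CM, and in GLUL and COL16A1 all parts are smaller in CM.

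In some other products the second entry differed by less than 1.5-fold between the libraries, while in SHMT2, VAC14 and PER2 it differed by more. PIGT under its own symbol was at 760, 667 and 614 UQRPKM, so that LOC100626091 held 12.3% of the sum in IM and 0.79% in CM. VPS41 was at 766, 739 and 577, and B9D2 at 248, 276 and 271. The second entry of POLR2J, LOC100521614, was at 364, 421 and 349. For PIGT, VPS41 and B9D2, the entry outside the 59 genes was the more abundant one. STMN4 was at 29.7, 34.3 and 33.0 UQRPKM, and USP39 at 46.1, 68.7 and 55.0. The second entry of SHMT2, LOC100626911, was highest in CM, at 285, 376 and 216 UQRPKM, as was VAC14 under its own symbol at 93.3, 103 and 62.3, and both were more than 1.5-fold lower in CMT than in CM. PER2 under its own symbol was highest in IM, at 54.5, 41.9 and 35.6. ATP11B under its own symbol was at 1.32, 0 and 4.04 on at most 3 reads, and its other entry LOC100624673 was at 20.2, 28.9 and 21.8. The symbols SHMT2 and PPP1R1A and the second PKIB entry LOC100517015 were listed at 0 in all libraries.

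The second entry was lower in CM as well for COL16A1 and WNT11. COL16A1 under its own symbol was at 106, 28.1 and 55.1 UQRPKM, and the sum with LOC102165099 at 163, 42.5 and 86.1. WNT11 under its own symbol was at 9.32, 2.67 and 7.35 on 6 reads in CM, and the sum at 31.1, 11.9 and 31.9.

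When the entries of each product were added up, 4 of 29 products other than GLUL still met the rule: COL16A1, WNT11, and PPP1R1A and PKIB, whose second entry was listed at 0. CM was the lowest library for 21 of the 29 sums. Since each sum holds an entry chosen for its low level in CM, the rule favoured this, and nothing is read from it. It also depends on adding levels of entries of unequal length. ATP11B was among the 21, with summed reads of 117, 120 and 123. Of the 29 sums, 18 were within 1.5-fold of both other libraries. Adding to the 4 products that met the rule the 28 genes for which no other entry was found and the GLUL pair, 34 of the 59 genes remained. The 28 include the 4 genes of unknown product, for which no search by product was possible. Another entry was found for 28 of 35 LOC genes but for only 3 of 24 genes with symbols. Only 48.1% of LOC genes at this level were in RefSeq, so a LOC copy could be missed. How reads that match more than 1 entry were counted is not given in the sources used here, and whether they were divided differently between the entries in CM was not tested. The levels of the 31 genes with another entry are uncertain to that extent, whereas both GLUL entries were low in CM. No other entry was found for S100A11, ACP2, ASIC1 and CNTN1, but such an entry could have been missed.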

How the data were processed

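RNA-Seq was made from 3 pooled RNA samples of pig visceral fat (IM, CM and CMT), 1 single-end Ion Proton library each, assigned to groups by the sample titles. The authors removed adaptor and low quality reads, used MapSplice for alignment to Sscrofa 10.2, and deposited values per gene as UQRPKM, an upper-quartile scaled RPKM; the counting tool, the annotation and the treatment of reads with several matches are not given in the sources used here. Values were used as deposited, with no pseudocount. Whole reads and gene lengths were recovered as the smallest numbers that give a gene's deposited values (upper quartiles 149, 142 and 146 in IM, CM and CMT); all 20838 genes above 0 came out whole, with a largest relative error of 7.65e-09, and reads may be underestimated by a common factor. Ratios carry exact Clopper-Pearson 95% intervals; PCR reads are not independent molecules, so these cover counting error only, and a count of 0 was read as up to 3 reads. The recovery and the rule were tested on simulated data.

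With 1 library a group no test between groups was made. List genes were compared where both libraries reached 1 UQRPKM, at 1.5-fold. Genes are named if they were among the 15 with the highest mean of IM and CMT, the 10 with the largest smaller ratio at 50 or more reads, in a list, next to a threshold, or another entry of a named product; other members are examples of their role, and list genes are examples chosen after their values were seen. Roles were assigned by hand after the values were seen. The members and lists were chosen with earlier results of these data known. Products of the members came from the study's annotation (29 members), RefSeq (3) or the deposited name (23), and 4 had none; entries found by the study's annotation alone are named as such, because that annotation covers genes selected for change. Names and gene order came from RefSeq (Sscrofa11.1), another build, so no coordinates are given. No sequences were used here, and the planned search of promoters was not run. Alternatives were another scaling, pseudocount, minimum, fold and read filter; 2 on near-identical entries were added after seeing the data. Python 3.11.15, numpy 2.4.6, pandas 2.3.3, scipy 1.17.1 and matplotlib 3.10.9 were used.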

Additional observations from a re-analysis of the deposited data

How the results depend on the processing

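The number of genes low only in CM, 59, was 57 with libraries scaled to equal totals, 55 with a median ratio and 51 with a pseudocount of 1 UQRPKM. It moved to 107 with a minimum of 10 UQRPKM, 22 with 50, 363 with none, 195 at 1.5-fold and 21 at 3-fold. It was 80 with all gene types, 57 with at least 30 reads, 56 with both intervals beyond a ratio of 1 and 20 with both beyond 2-fold. In the alternatives added after seeing the data it was 28 where no other entry of the product was found and 34 with entries summed. Both counts include the 4 genes of unknown product, for which no search was possible. With minimums of 10 and 50 UQRPKM and folds of 1.5 and 3, genes low only in IM numbered 94, 27, 174 and 22, and low only in CMT 116, 34, 292 and 22, so the number for CM lay below that for CMT in these 4 settings, and below that for IM with the minimum of 50 and the fold of 3. Genes high only in IM numbered 132, 33, 302 and 27, and high only in CMT 189, 70, 270 and 69, in the same order. Genes high only in CM moved to 97 with a minimum of 50 and 304 at 1.5-fold. With the median ratio, the glutamine list had 1 gene lower in CM than in IM in place of 2 and 4 higher in place of 3, and the glucocorticoid and androgen list and the IL-1 list each had 1 higher in place of 0. With equal totals, the one-carbon list had 0 genes lower in CMT than in CM in place of 1, and the glucocorticoid and androgen list again had 1 higher. Under both scalings, the smooth muscle markers had 2 genes lower in CM than in IM in place of 4, and the nerve markers 4 higher in CMT than in CM in place of 3. No log2 ratio of a gene of the set changed sign under another scaling or pseudocount. The 2-fold rule fixed this in advance, since the scaling factors lay between 0.967 and 1.021 and the pseudocount was 1 UQRPKM. No paired analysis was possible because each group is 1 library. With no replicates, no value here separates castration or testosterone from differences between the pools, and genes with few reads in CM have wide intervals.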

Other observations

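Some entries of other types than mRNA also met the rule. Of 881 entries of other types at 20 UQRPKM or more in IM and CMT, 21 did, beside 59 of 9951 mRNA genes (0.593%). Of the 21, 17 were miscRNA, 3 ncRNA and 1 miRNA. Several rested on few reads, among them LOC102165753 on 5, 2 and 5 and LOC102162906 on 9, 1 and 8. Counts with IM or CMT as the low library are not given for these types, so nothing further is read from the number. The most abundant was LOC100626679, a ncRNA of unknown product, at 386, 96.1 and 639 UQRPKM, from 501, 119 and 814 reads. LOC102165850, a miscRNA, was at 364, 135 and 292. The miRNA entry MIR339 was at 58.7 UQRPKM in IM and 34.2 in CMT on 7 and 4 reads and was listed at 0 in CM.

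In the IL-1 receptor signalling list, 2 of 12 genes were at least 1.5-fold lower and 0 higher in CM than in IM. Between CMT and CM, 2 were lower and 2 higher. Over all mRNA genes, 10.4% were lower and 8.38% higher in CM than in IM, and 9.97% and 9.53% in CMT than in CM. The cytokine IL1B was at 11.95, 2.89 and 9.85 UQRPKM, on 6 reads in CM. LOC102161161, annotated as the IL-1 receptor kinase IRAK2, was at 37.5, 14.8 and 38.3 on 3 reads in CM, and IRAK2 under its own symbol at 45.9, 53.0 and 41.2. Of 6 smooth muscle markers, CM was lower than IM for 4 (2 under either other scaling) and higher for 0, beside the same shares. By any amount, CM was below IM for all 6, with a median log2 ratio of -0.60 beside -0.06 over all mRNA genes. ACTA2, at 2643, 1800 and 1654 UQRPKM, fell short of 1.5-fold. The 2 higher in CMT than in CM were MYOCD, on 2 reads in CM, and DES. DES was at 52.9, 33.0 and 459 UQRPKM, highest in the library that also held the skeletal muscle markers.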
